A study of Mus musculus with 2 samples.

Results

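The 29 genes described here encode enzymes and regulators of cholesterol and fatty acid synthesis. They were chosen by gene name for their role in these pathways, by a rule that uses no measured value, although earlier results of these data were known when the list was made. All 29 were found among the 29924 gene names of the array. RNA came from ureters of wildtype NMRI mice, which were explanted at postnatal day 0 (P0) and then kept in culture for 18 h in the presence of IWP-2 at 5 µM or of the solvent DMSO alone. IWP-2 inhibits Porcupine (PORCN), the membrane-bound acyltransferase that attaches a lipid to WNT proteins before their secretion. The control and the IWP-2 pool of each replicate, each made from 5 or 6 ureters, were hybridized to the same two-colour Agilent array. The pools of replicate 1 were female, with IWP-2 in the red channel, and those of replicate 2 were male, with the dyes swapped, so that sex and dye orientation cannot be told apart. With 2 arrays, each p-value rests on 1 residual degree of freedom per gene plus the spread that limma shares across genes. The SE given with a mean is limma's moderated SE, which includes this shared spread. It is not the SE of the 2 values of the gene alone.

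Cholesterol is built from acetyl-CoA through mevalonate, isoprenoids, squalene and lanosterol, and fatty acids are built from the same precursor through malonyl-CoA and palmitate. The transcription factors SREBP-2 and SREBP-1, encoded by *Srebf2* and *Srebf1*, drive both pathways when membrane sterols are low, and INSIG1 holds their precursors in the endoplasmic reticulum when sterols are plentiful. Stearoyl-CoA desaturases place the double bond in palmitoleate, the fatty acid that PORCN attaches to WNT proteins, and cholesterol is itself attached to hedgehog proteins. The comparison therefore asks whether an inhibitor of WNT acylation was accompanied by a change in the RNA of genes that make these lipids.

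None of the 29 genes passed the threshold of a limma adjusted p of 0.05, neither as higher nor as lower in IWP-2-treated ureters. Over all 14334 genes tested, 1.3% passed (0.391% higher and 0.907% lower). The lowest adjusted p among the 29 was 0.212, for *Elovl6*. At an unadjusted limma p of 0.05, 4 of the 29 (*Me1*, *Elovl6*, *Lss* and *Insig1*) were higher and 1 (*Scd1*) was lower, while 6.27% of all genes were higher and 6.68% lower by that rule. No member had a control signal above 100 and a 1.5-fold difference in both arrays, in either direction (0.0698% of all genes were higher by this rule and 0.356% lower). The mean log2 fold change of IWP-2 over control ranged from -0.21 (*Scd1*) to 0.28 (*Me1*), with a median of 0.05 over the 29 genes and -0.0059 over all genes tested. Its limma 95% interval lay inside a 1.5-fold change either way for all 29 genes, as it did for 96.7% of all genes; it did so for 19 genes with no filter on signal and for 23 with genes kept that were well above background in all 4 channels. The widest limits were 1.30-fold lower (*Scd1*) and 1.42-fold higher (*Me1*). The pools held whole ureters, in which fewer cells of a type and less RNA per cell cannot be told apart, so the intervals do not bound changes within single cell types.

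The treatment itself was visible on both arrays. *Axin2*, a direct target of canonical WNT signaling, had signals of 181 (control) and 42.1 (IWP-2) in replicate 1, and of 154 and 46.7 in replicate 2. Both treated pools lay below both control pools, and *Axin2* fell by 1.92 on the log2 scale (SE 0.0994, n = 2, limma adjusted p = 0.000637). These values are those of the brighter of its 2 probes. With the mean of both probes the log2 fold change was -1.11 (limma adjusted p = 0.0223). The gene of the inhibited enzyme, *Porcn*, had a mean log2 fold change of -0.04 ± 0.0684 (SE, n = 2, limma adjusted p = 0.962). The tissue also carried its markers: 11 of 11 urothelial, 8 of 8 smooth muscle and 8 of 8 fibroblast marker genes passed the signal filter, whereas 0 of 5 adrenal cortex markers did. Of 13 adipocyte markers 7 passed, and *Lep*, *Cidec* and *Ucp1* lay at the signal floor of 15 in all 4 channels.

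All 29 genes of the lipid pathways were well above background in all 4 channels and passed the signal filter, which asked that the control or the treated pools average more than 100. Their signals spanned 107 to 10495 arbitrary units, and *Fasn*, at 107 to 117, lay nearest to the filter. Signals of different genes come from different probes and are not compared with each other here. Replicate spots of a gene scattered little, with a median SD of the log2 ratio of 0.0207 on the array of replicate 1 and 0.0221 on that of replicate 2. The spread between the arrays was larger, with a median gap of 0.13 for the 29 genes and 0.10 for all genes tested.

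**Figure D1:**
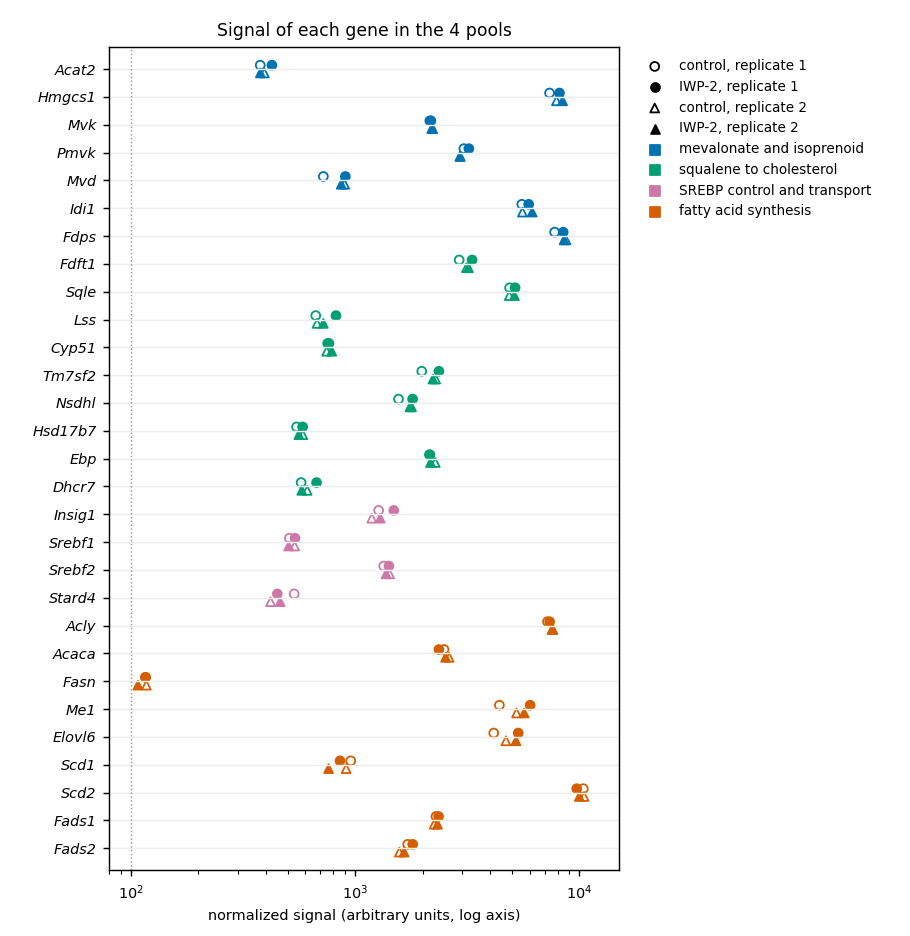
Normalized signal of each of the 29 genes (log axis, arbitrary units) in the control (open) and IWP-2 (filled) pools of replicate 1 (circles) and replicate 2 (triangles), coloured by role in the pathway; the dotted line marks the filter of 100. The 4 symbols of a gene lie close together, *Fasn* sits just above the filter, and positions of different genes are not comparable because their probes differ.

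The enzymes from acetyl-CoA to farnesyl diphosphate had mean differences of at most 1.10-fold. Of the 7 genes, 7 were above control in replicate 1 and 3 in replicate 2 (48.7% and 47.9% of all genes tested). The median log2 fold change was 0.06. *Hmgcs1*, an early enzyme of the mevalonate pathway, had signals of 7365 (control) and 8155 (IWP-2) in replicate 1, and of 7905 and 8422 in replicate 2. Both treated pools lay above both controls; such orderings across arrays rest on the software's scaling of each array, whereas fold changes are taken within an array. Its mean log2 fold change was 0.12 ± 0.0676 (SE, n = 2, limma adjusted p = 0.604). *Idi1*, the isomerase of isopentenyl diphosphate, had signals of 5538 and 5945 in replicate 1 and of 5575 and 6162 in replicate 2. Both treated pools lay above both controls, with a mean of 0.12 ± 0.0672 (SE, n = 2, limma adjusted p = 0.575). The thiolase *Acat2*, the kinases *Mvk* and *Pmvk*, the decarboxylase *Mvd* and farnesyl diphosphate synthase (*Fdps*) had means between 0.00071 and 0.14. The highest of these, *Mvd*, was 0.33 on the array of replicate 1 and -0.05 on that of replicate 2.

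Among the 22 of 29 genes with a promoter window in the RefSeq table of build GRCm38.p6 (250 bases before to 50 after the start of the gene), *Hmgcs1* was the 1 that held the sterol response element core, searched as TCACNCCAC on both strands. This core was found in 1.44% of the 27025 genes of the table, and in 1.24% of its 32851 windows. The stretch that holds it lies at chr13:119690194-119690330 on the plus strand, from 157 to 21 bases before the start, and is shown because SREBP proteins bind such elements together with factors at nearby CCAAT boxes. The capitals mark the core at its left and an inverted CCAAT box (read as ATTGG) at its right.
Hmgcs1 promoter: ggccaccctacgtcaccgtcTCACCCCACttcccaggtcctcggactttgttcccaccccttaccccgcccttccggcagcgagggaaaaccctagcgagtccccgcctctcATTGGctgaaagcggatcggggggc
The CCAAT box, searched on both strands, was present in the windows of 18 of the 22 genes and in those of 41.1% of the 27025 genes of the table. The presence of these letters says nothing about binding in the ureter, and the gene that carries both motifs had the log2 fold change of 0.12 given above.

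From squalene to cholesterol, all 9 enzymes were above control in replicate 1, and 5 of 9 were in replicate 2. Over all genes tested, these shares were 48.7% and 47.9%. The median log2 fold change of the 9 enzymes was 0.08. Lanosterol synthase (*Lss*), which closes the sterol rings, had signals of 667 (control) and 822 (IWP-2) in replicate 1, and of 676 and 722 in replicate 2. Its probe covers chr10:76015992-76016051 in the mm9 build of the array design. Both treated pools lay above both controls, by a mean of 0.20 ± 0.0777 (SE, n = 2, 1.15-fold), and all 7 spots kept were above 0, yet the limma adjusted p was 0.348. *Nsdhl*, which removes methyl groups from the sterol ring, had signals of 1561 and 1805 in replicate 1 and of 1756 and 1785 in replicate 2, a mean of 0.12 ± 0.0758 (SE, n = 2, limma adjusted p = 0.699). The difference came almost entirely from the array of replicate 1. Squalene synthase (*Fdft1*), squalene epoxidase (*Sqle*), the lanosterol demethylase *Cyp51*, the reductase *Tm7sf2*, *Hsd17b7*, the isomerase *Ebp* and *Dhcr7*, the reductase that is lost in Smith-Lemli-Opitz syndrome, had means from -0.03 (*Ebp*) to 0.11 (*Fdft1*). *Sqle* was the most alike on both arrays among the 9, at 0.08 and 0.08.

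The regulators gave no common direction. *Insig1*, itself a well-known SREBP target, had signals of 1273 (control) and 1488 (IWP-2) in replicate 1, and of 1187 and 1295 in replicate 2. Both treated pools were above both controls, and the mean log2 fold change was 0.18 ± 0.0694 (SE, n = 2, 1.13-fold, limma adjusted p = 0.351). *Srebf1* had signals of 509 and 539 in replicate 1 and of 537 and 505 in replicate 2. The 2 arrays lay on opposite sides of 0, and the mean was -0.0023 ± 0.0747 (SE, n = 2, limma adjusted p = 0.999). For *Srebf2*, signals were 1342 and 1415 in replicate 1 and 1426 and 1375 in replicate 2. It too was above control on one array and below on the other, with a mean of 0.01 ± 0.0714 (SE, n = 2, limma adjusted p = 0.995). The sterol carrier *Stard4* showed the largest gap between arrays of the 29 genes, at -0.25 in replicate 1 and 0.14 in replicate 2. Its second probe had 0.01 and 0.25, so that the mean was -0.05 with one probe and 0.13 with the other.

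The genes with the largest differences belonged to the fatty acid branch, and they pointed in both directions. Malic enzyme (*Me1*), which supplies NADPH for fatty acid synthesis, had signals of 4400 in the control and 6033 in the IWP-2 pool of replicate 1, and of 5248 and 5675 in replicate 2. Both treated pools were above both controls, but the log2 fold change was 0.46 on one array and 0.11 on the other. Its mean was 0.28 ± 0.0942 (SE, n = 2, 1.22-fold, limma adjusted p = 0.245), and the other probes of the gene had means of 0.41 and 0.29. The probe used covers chr9:86475077-86475136 in mm9, on the minus strand. *Elovl6*, the elongase that lengthens palmitate and palmitoleate, had signals of 4152 and 5340 in replicate 1 and of 4706 and 5216 in replicate 2. Its treated pools also lay above both controls, with a mean of 0.26 ± 0.0787 (SE, n = 2, 1.19-fold, limma adjusted p = 0.212) and a probe at chr3:129341248-129341307 in mm9.

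*Scd1* and *Scd2*, the desaturases that make palmitoleoyl-CoA and oleoyl-CoA, lay below control on both arrays. The signals of *Scd1* were 956 (control) and 856 (IWP-2) in replicate 1, and 912 and 762 in replicate 2. Both treated pools were below both controls, and all 7 spots kept were below 0. The mean log2 fold change of *Scd1* was -0.21 ± 0.0696 (SE, n = 2, 1.16-fold lower, limma adjusted p = 0.247). *Scd2* had signals of 10420 and 9740 in replicate 1, and of 10495 and 9998 in replicate 2. Its treated pools were again below both controls, by a small margin, with a mean of -0.08 ± 0.067 (SE, n = 2, limma adjusted p = 0.790). The 2 genes are neighbours on mouse chromosome 19, with probes at chr19:44469387-44469446 (*Scd1*, minus strand) and chr19:44381024-44381083 (*Scd2*) in mm9. They are close in sequence, and hybridization of one transcript to the probe of the other was not tested.

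ATP citrate lyase (*Acly*), acetyl-CoA carboxylase (*Acaca*), fatty acid synthase (*Fasn*) and the desaturases of polyunsaturated fatty acids *Fads1* and *Fads2* had means from -0.06 (*Acaca*) to 0.07 (*Fads2*). *Acly* depended on the probe: the one used gave 0.0086, and a dimmer second probe gave 0.29 and 0.17 on the 2 arrays. Altogether 13 of the 29 genes had more than 1 probe, and of the 11 further probes above the filter 9 had the same sign as the probe used, with a largest gap in the mean of 0.22.

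**Figure D2:**
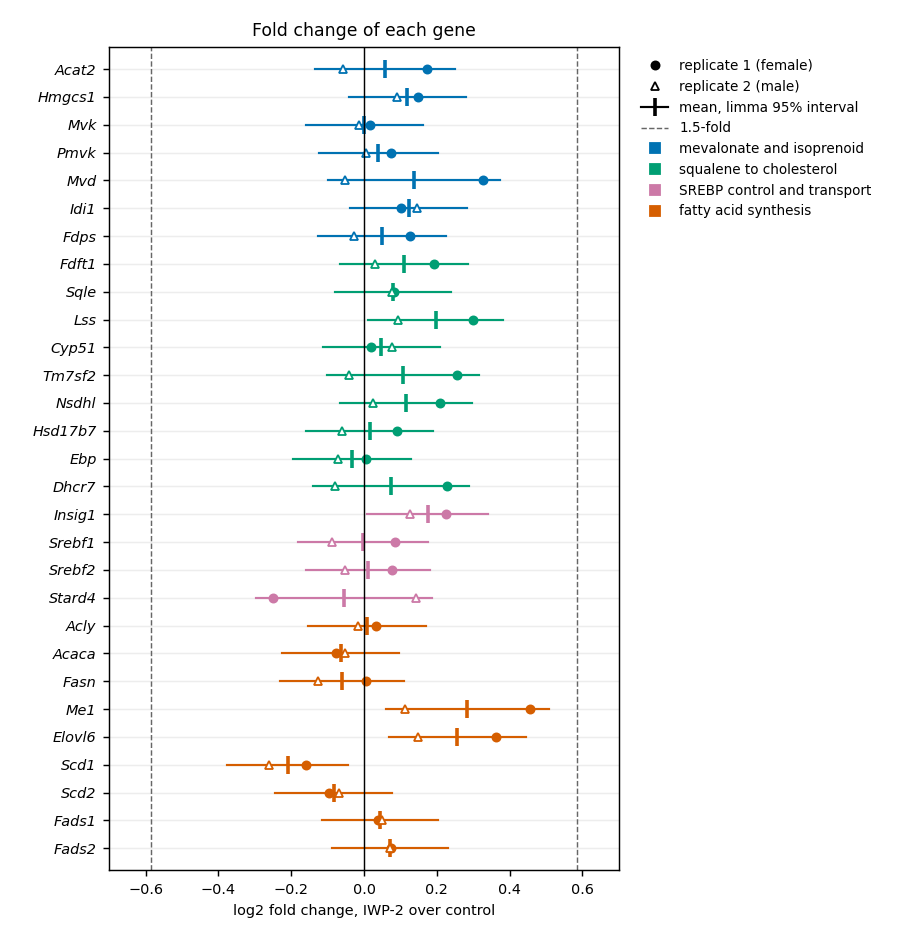
Log2 fold change of IWP-2 over control for each of the 29 genes, with the array of replicate 1 (filled circles), that of replicate 2 (open triangles), their mean (vertical bar) and its limma 95% interval (horizontal line), coloured by role; dashed lines mark 1.5-fold. No interval reaches the dashed lines, and the intervals of *Me1*, *Elovl6*, *Lss*, *Insig1* and *Scd1* leave out 0 before adjustment.

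The 2 arrays gave different pictures of the group. On the array of replicate 1, 25 of the 29 genes were above control, against 48.7% of all genes tested, and their median was 0.08. On the array of replicate 2, 14 of 29 were above control, against 47.9% of all genes, with a median of -0.01. Both arrays put 13 of the 29 genes above control (25.7% of all genes) and 3 below (*Acaca*, *Scd1* and *Scd2*; 29.2% of all genes), and the remaining 13 changed sides. By role, the medians in replicate 1 and replicate 2 were 0.13 and -0.01 for the mevalonate enzymes, 0.19 and 0.02 for the sterol enzymes, 0.08 and 0.04 for the regulators, and 0.03 and -0.02 for the fatty acid genes. The control of replicate 1 was the lowest of the 4 channels for 17 of the 29 genes, and for 29% of all genes tested.

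**Figure D3:**
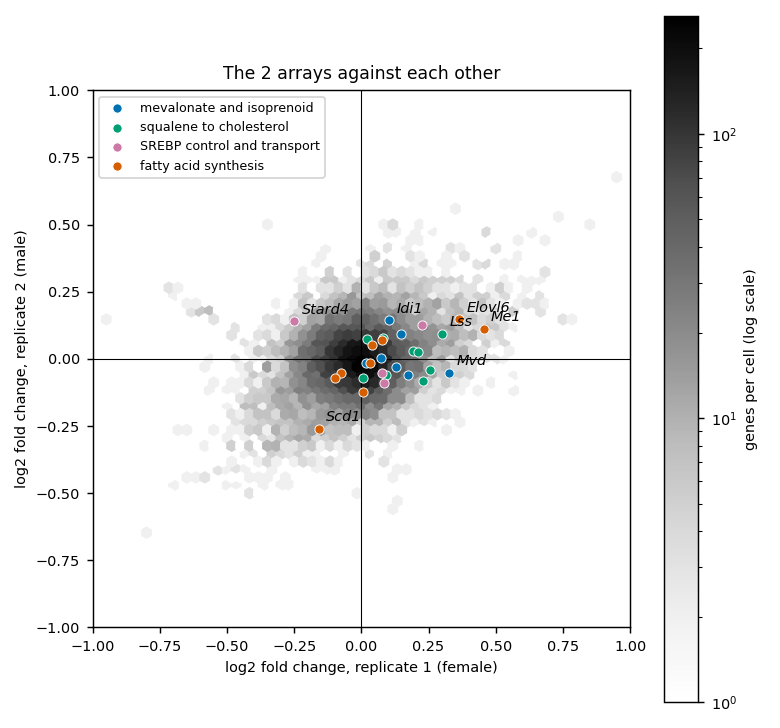
Log2 fold change on the array of replicate 1 (horizontal) against that of replicate 2 (vertical) for the 29 genes (coloured points) over all genes tested (grey cells, darker for more genes; 76 of 14334 genes lie beyond the axes). Most coloured points lie to the right of 0 and are spread about 0 on the vertical axis, with *Me1* and *Elovl6* to the upper right and *Scd1* to the lower left.

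Markers of other cell types differed between the arrays as well, where 48.7% (replicate 1) and 47.9% (replicate 2) of all genes were above control. All 11 urothelial markers were above control in replicate 1 and 7 in replicate 2, with medians of 0.35 and 0.12, and their summed signal was 134268 (control) and 170285 (IWP-2) in replicate 1, and 163656 and 168774 in replicate 2. Of the 4 lists given here, the urothelial and the interferon response sums were lowest in the control of replicate 1. The fibroblast and smooth muscle sums were lowest in other pools. Comparisons of sums across arrays rest on the software's scaling of each array. Of 8 fibroblast markers 1 was above control in replicate 1 and 5 in replicate 2, with summed signals of 147539 and 128118, and of 131724 and 133057. The summed signals of the 8 smooth muscle markers were 99131 and 99217 in replicate 1, and 84656 and 99153 in replicate 2. All 16 interferon response genes tested were above control in replicate 1 and 8 in replicate 2, with medians of 1.01 and -0.01, and the list summed to 7109 and 14520 in replicate 1, and to 39195 and 37451 in replicate 2. No gene of these 4 lists passed an adjusted p of 0.05 (1.3% of all genes did). An unadjusted limma p under 0.05 was found for 6 of 11 urothelial, 0 of 8 fibroblast and 2 of 8 smooth muscle genes. It was also found for 8 of 16 interferon response genes, against 12.9% of all genes. The part of these cell types and of the interferon response in the values of the lipid genes was not tested.

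**Figure D4:**
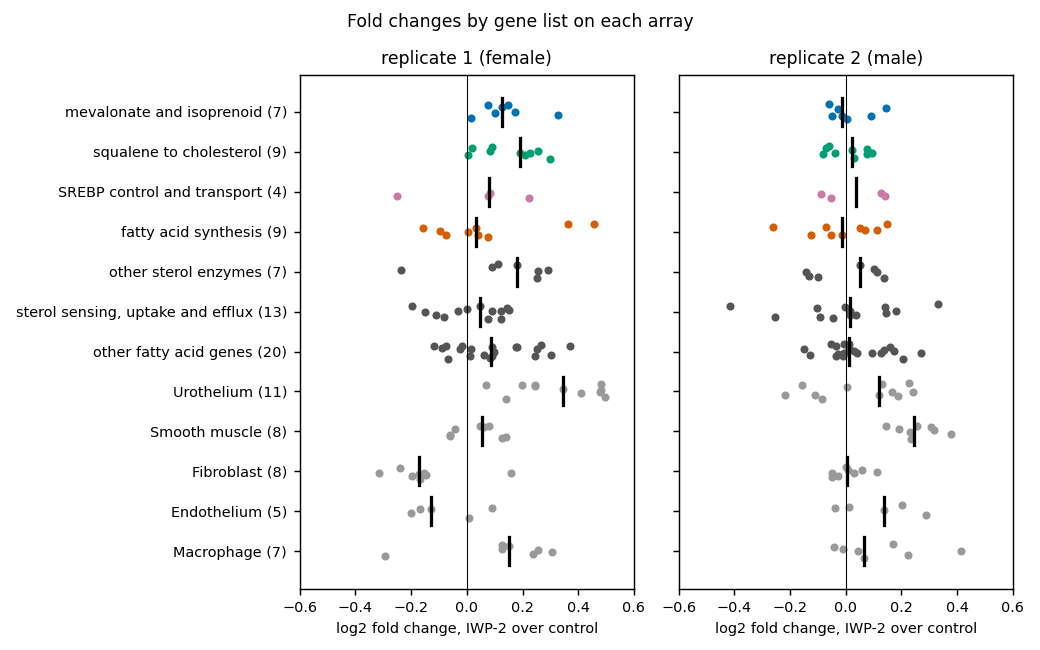
Log2 fold change of each gene (points) by list on the array of replicate 1 (left) and of replicate 2 (right), with the median as a black line and the number of genes tested in parentheses; points are spread vertically at random. The sterol enzymes and the urothelial markers sit to the right of 0 in replicate 1 and nearer to 0 in replicate 2.

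Of 48 further genes of the pathways, 40 passed the signal filter and 0 of them had a limma adjusted p under 0.05 (lowest 0.104), with 11 of 40 at an unadjusted limma p under 0.05 (1.3% and 12.9% of all genes). All 40 limma 95% intervals lay inside 1.5-fold, as did those of 96.7% of all genes. At an unadjusted limma p under 0.05, 6.27% of all genes were higher and 6.68% lower. Of the 7 other sterol enzymes 3 were higher and 1 lower at an unadjusted p of 0.05, led by *Sc5d*, a desaturase of the sterol ring (0.21 ± 0.0733, SE, n = 2, limma adjusted p = 0.261), and by *Lbr*, the lamin B receptor, which is also a sterol reductase (-0.18 ± 0.0698, SE, n = 2, limma adjusted p = 0.328). Of 13 genes of sterol sensing, uptake and efflux 1 was higher and 1 lower at that threshold. These were *Mylip*, a ubiquitin ligase for the LDL receptor (0.24 ± 0.0755, SE, n = 2, limma adjusted p = 0.219), and *Nr1h3*, the sterol-activated receptor LXR alpha that induces it (-0.22 ± 0.0676, SE, n = 2, limma adjusted p = 0.202).

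Of the 20 other fatty acid genes tested, 5 were higher and 0 lower at an unadjusted p of 0.05, against 6.27% and 6.68% of all genes. *Acss2*, which makes acetyl-CoA from acetate, had signals of 677 in the control and 876 in the IWP-2 pool of replicate 1, and of 708 and 852 in replicate 2. Both treated pools lay above both controls, and its mean of 0.32 ± 0.0697 (SE, n = 2, 1.25-fold, limma adjusted p = 0.104) was the largest among the tested genes of all these lists. *Pnpla3*, a lipase and SREBP-1 target, had signals of 89.1 and 106 in replicate 1 and of 102 and 115 in replicate 2, close to the filter, with a mean of 0.21 ± 0.0684 (SE, n = 2, limma adjusted p = 0.229). The desaturases *Scd3* and *Scd4* were below the filter in both conditions, as were *Mbtps2*, *Thrsp*, *Elovl3*, *Fads6* and *Lpin1*.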

How the data were processed

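The deposited scanner files, per the file headers from Agilent Feature Extraction 12.2.0.7 (10.7.3.1 per the labels), hold processed intensity values that the authors' software had background-subtracted and dye-normalized (linear and LOWESS), log10 ratios and spot flags. The deposited value table holds a score, read here as a signed fold change. This reading rests on its sign in the genes tested. Among values beyond 1, it matched the sign of the log2 ratio computed here in 99.9%. The deposited score was not used for tests. No array statistics are named in the study's methods. Each array held 157716 spots for 39429 probes, with 3.32% and 3.22% flagged and 0 saturated. Depending on the channel, 68.4% to 70.0% of these spots were well above background. The number of arrays limits the precision.

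Control spots and outlier spots were left out, signals were normalized by loess within each array (span 0.3), set to a floor of 15, converted to log2 values from the deposited intensity values and averaged over spots. The brightest probe stood for a gene name, and the 14334 genes whose control or treated pools averaged more than 100 were tested. Log2 ratios of IWP-2 over control, turned the same way on both arrays, were tested against 0 with limma 3.58.1 (R 4.3.3, lmFit and eBayes, two-sided, Benjamini-Hochberg over all genes tested, prior degrees of freedom 5.64), after a test on simulated data. Both arrays lie on 1 slide scanned once. The arrays hold independent pools that also differ in sex and dye orientation. The p-values and SEs rest on the spread between these 2 arrays, mostly as limma shares it across genes and less on that of the single gene.

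The 29 genes and all lists were chosen with earlier results of these data known. Values in all 4 channels are given for the 8 members with the largest absolute mean of equal sign on both arrays and for *Scd1*, *Scd2*, *Srebf1*, *Srebf2* and *Insig1*; of other pathway genes, the 2 with the largest absolute mean per list are named, and some genes are not reported here. Probe positions are those of the array files (mm9), and promoter sequences those of RefSeq (GRCm38.p6). Endothelial, macrophage and Schwann cell markers were also summarized, and 0 of them passed an adjusted p of 0.05 (1.3% of all genes did). At an unadjusted limma p under 0.05 there were 1 of 5, 2 of 7 and 2 of 4 tested, against 12.9% of all genes.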

Additional observations from a re-analysis of the deposited data

Results flagged for a closer look

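For 9 of the 29 genes, all spots kept lay above 0 on one array and below 0 on the other, as they did for 25.1% of all genes tested. The difference between the arrays, and hence between female and male pools, was not tested, since each sex has 1 array and the dyes differ with it. The log2 fold changes in female and male pools were 0.173 and -0.0590 for *Acat2*, 0.326 and -0.0509 for *Mvd*, 0.254 and -0.0400 for *Tm7sf2*, and 0.228 and -0.0806 for *Dhcr7*. They were 0.0900 and -0.0593 for *Hsd17b7*, 0.0839 and -0.0885 for *Srebf1*, 0.0769 and -0.0531 for *Srebf2*, and 0.0323 and -0.0151 for *Acly*. *Stard4* alone among the 9 ran the other way, with -0.249 and 0.142. These values are those of the brightest probe. Second probes above the filter stayed above 0 on both arrays for *Hsd17b7* (0.125 and 0.105), *Acly* (0.288 and 0.175) and *Stard4* (0.0138 and 0.250). Those of *Tm7sf2* (0.267 and -0.0892) and *Srebf2* (0.124 and -0.0839) changed side as the probe used did.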

How the results depend on the processing

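No member and no other pathway gene passed an adjusted p of 0.05 under any of 12 alternative settings with a test, in which the lowest member adjusted p was 0.066 (eBayes with an intensity trend, 420 of all genes called). Against 186 genes in all, 107 were called without normalization within the array, 300 with normexp background correction and 84 with the mean of all probes. With no filter on signal, or with every gene well above background in all 4 channels kept, 0 genes in all were called; *Axin2*, at -1.92, then had adjusted p values of 0.633 and 0.504, and the limma 95% intervals of 19 and 23 of the 29 genes lay inside 1.5-fold, so these settings set no such bound for the others. Median centring in place of loess moved the median of all genes to 0.04, and with it *Srebf1* to 0.0379 (limma adjusted p = 0.893), the regulator median to 0.0458 and the fatty acid median to 0.0526; the mean of all probes moved the latter to 0.0447. Leaving out replicate 1 or replicate 2 gave regulator medians of 0.0363 and 0.0804. The median of the 29 genes was then -0.0144 and 0.0839, that of the mevalonate enzymes -0.0144 and 0.127. It was 0.0241 and 0.191 for the sterol enzymes, and -0.0151 and 0.0323 for the fatty acid genes. *Mvk* (-0.0139 to 0.0439), *Ebp* (-0.0335 to 0.0102) and *Stard4* (-0.0572 to 0.0390) also changed sign in 1 of the 12 settings. The other 25 of the 29 genes kept their sign in these settings wherever they were tested. All 12 use both arrays, and 13 of the 29 genes lay on opposite sides of 0 on the 2 arrays. The cause of these shifts was not tested. The main analysis was already paired, because each ratio is taken within 1 array and so pairs the pools of a replicate.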

Other observations

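Of the 7 adipocyte markers tested, 4 were above control on both arrays, 4 in female and 7 in male pools (25.7%, 48.7% and 47.9% of all genes). Of the 7, 0 passed a limma adjusted p of 0.05 (1.3% of all genes). At an unadjusted limma p under 0.05 there were 3 (12.9% of all genes). The 13 markers summed to signals of 21087 (control) and 25617 (IWP-2) in the female pools, and of 22815 and 27334 in the male pools. Most of each sum came from *Fabp4* and *Pparg*. *Fabp4* had signals of 11958 and 14228 in the female pools, and of 12388 and 15063 in the male pools. Those of *Pparg* were 5036 and 6886, and 6303 and 7534. Some values outside the comparisons above were picked after they had been seen. *Adipoq* and *Cfd*, secreted products of fat cells, had their lowest signal in the male control pool. The signals of *Adipoq* were 300.2 (control) and 205 (IWP-2) in the female pools, and 66.3 and 175 in the male pools. Those of *Cfd* were 272 and 149, and 19.7 and 179. *Plin4* and *Lipe* also had their lowest signal in the male control. Their log2 fold changes in female and male pools were -0.04 and 0.33 for *Plin4*, and 0.04 and 0.04 for *Lipe*. The other 3 of the 7 tested markers, *Fabp4*, *Dgat2* and *Pparg*, had their lowest signal in the female control. Log2 fold changes in female and male pools were 0.25 and 0.28 for *Fabp4*, and 0.31 and 0.09 for *Dgat2*. *Pparg*, the adipogenic nuclear receptor that urothelium also expresses, was above control on both arrays (0.45 and 0.26, limma adjusted p = 0.103). *Ch25h*, a cholesterol hydroxylase induced by interferon, had signals of 340 and 369 in the female pools, and of 665 and 499 in the male pools.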
